A study of Mus musculus with 6 samples.

Results

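The replication-dependent histone genes encode the bulk of the core histones H2A, H2B, H3 and H4 and the linker histones H1. They were taken from the deposited table by symbol (H2ac, H2bc, H3c or H4c followed by digits, or H1f1 to H1f5) with a protein-coding transcript type, which gave 58 of 28789 genes. There were 5 H1, 15 H2A, 15 H2B, 11 H3 and 12 H4 members. The transcript type rule left out 2 further symbols, H2bc23 and H2ac14.

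The libraries came from TCMK1 cells, an established mouse renal tubular epithelial line, all treated with Ang II (angiotensin II). In 3 of the 6 libraries the cells overexpressed YOD1, an enzyme that removes ubiquitin from proteins, and the other 3 carry the genotype label control. The Ang II dose and time, how YOD1 was introduced, and whether controls carried an empty vector or lines were single clones have no entry in the labels. The series sets out to find pathways that YOD1 regulates in these cells, and paired-end sequencing was used. The extraction protocol isolates poly(A) mRNA on beads, but its next step names both the poly(A)- and the poly(A)+ fraction, so it does not settle which was sequenced.

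Replication-dependent histone genes are transcribed mainly in S phase, when new chromatin is assembled. Their mRNAs normally lack a poly(A) tail and end in a conserved stem-loop: the stem-loop binding protein SLBP and the U7 snRNP direct the cut just downstream of the loop. Selection for poly(A) retains little of such tail-less mRNA, although some of these genes are also known to give polyadenylated transcripts in differentiated cells. Variant histones such as H3f3b and H2az1 differ in this respect, since they are made throughout the cell cycle with ordinary poly(A) tails.

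The stem-loop letters are shown because they mark the transcript end that sets these genes apart. GENCODE M21 transcript models (build GRCm38) of all 58 members were searched on the transcript strand for 16 bases made of the stem start GGNNC, the middle TTTTCAG and the stem end NNCC, joined in that order. The longest model of 31 members held it, and so did 0.0952% of all protein-coding models (56 of 58797, the members included). By gene, 46 of 21901 protein-coding genes held it. Of these 31 were members and 15 were not, among them H2aw, H4f16, Ucp2 and Syncrip. In the members the match began between 24 and 58 bases past the stop codon, with a median of 31. Of the other 27 members, 13 have models that end within 2 bases of the stop codon, where the stem-loop cannot be seen. The search took only the stated letters, so a stem-loop with another middle would be missed in any member. The members below cover every sub-family and each of the 3 forms found, with the matched bases in capitals and 5 flanking bases on either side, 5′ to 3′:
H1f4, chr13:23621777-23621802, minus strand: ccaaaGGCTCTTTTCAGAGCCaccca
H1f2, chr13:23739507-23739532, plus strand: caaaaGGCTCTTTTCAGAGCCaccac
H2ac8, chr13:23570663-23570688, minus strand: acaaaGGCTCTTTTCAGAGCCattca
H2bc8, chr13:23571838-23571863, plus strand: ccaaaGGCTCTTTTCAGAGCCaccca
H2bc11, chr13:22043633-22043658, plus strand: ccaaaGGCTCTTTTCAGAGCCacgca
H3c1, chr13:23761885-23761910, minus strand: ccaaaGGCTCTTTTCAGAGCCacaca
H4c8, chr13:23531453-23531478, plus strand: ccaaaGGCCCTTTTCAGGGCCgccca
H4c18, chr13:21831793-21831818, minus strand: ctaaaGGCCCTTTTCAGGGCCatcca
H4c2, chr13:23757361-23757386, plus strand: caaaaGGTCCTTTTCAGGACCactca
H4c11, chr13:21735432-21735457, plus strand: ctaaaGGTCCTTTTCAGGACCaccac
The form with GGCTC and GAGCC as its stem stood in 23 members, which were all the H1, H2A, H2B and H3 members with a match. The 8 H4 members with a match had other stems: 6 had GGCCC and GGGCC, and H4c2 and H4c11 had GGTCC and GGACC. By annotation 51 members lie on chromosome 13 and 7 on chromosome 3.

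Values are FPKM, the number of fragments scaled to transcript length and to library size, and are compared on the scale log2(FPKM + 1) with limma. The filter asked for 1 FPKM or more in any 3 of the 6 libraries, and of the 11483 genes that passed it 51 were called higher and 4 lower with YOD1 at an adjusted p of 0.05, and the median log2 fold change was -0.10. The number called higher was 107 without YOD1 library 3, and 30, 17 and 145 without control 1, 2 and 3. The number called lower was 1 and 25 without YOD1 library 1 and 3, and 1, 2 and 97 without control 1, 2 and 3. FPKM summed to between 314172 and 352209 per library, and the read depth behind a value is unknown. Yod1 itself stood at 1.73, 7.56 and 1.86 FPKM in the YOD1 libraries and at 0.842, 0.757 and 0.684 FPKM in the controls, without passing the limma test (log2 fold change 1.21, SE 0.37, adjusted p = 0.141). Of 13 tubular markers 11 were tested, led by Krt18 (629, 595 and 820 FPKM with YOD1, against 482, 514 and 587 FPKM in controls). Slc5a2 and Cubn of the proximal tubule were under 1 FPKM in every library. Aqp1 and Lrp2, also markers of the proximal tubule, averaged 21.2 and 2.75 FPKM with YOD1, against 19.3 and 3.60 FPKM in controls. Of the tubular markers 0 were called by limma, and Cdh16 and Pax8, both with an unadjusted p under 0.05, had log2 fold changes of -0.41 and -0.45. Summed FPKM of fibroblast markers ran from 6.13 to 12.9 with YOD1 and from 12.0 to 14.3 in controls. That of endothelial markers ran from 1.24 to 2.10 with YOD1 and from 0.674 to 1.33 in controls. The sum of leukocyte markers ran from 12.4 to 15.5 with YOD1 and from 12.7 to 23.0 in controls. Cd68 made up nearly all of the leukocyte sum, averaging 13.5 FPKM with YOD1 and 18.2 FPKM in controls. Ptprc, Adgre1 and Cd3e were under 1 FPKM in every library. The part of these markers in the histone result was not tested. Nothing in the labels ties the replicates to separate cultures, and the p-values then cover the spread of these libraries alone, possibly a technical one. In bulk RNA, more cells that express a gene and more RNA per cell cannot be told apart.

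Histone mRNAs of the replication-dependent class were higher in the YOD1 libraries across the core sub-families. By mean sum H4 was the highest sub-family with YOD1 (76.7 FPKM), while H1 was the highest in the controls (23.3 FPKM). The FPKM of all 58 members summed to 199.6, 199.03 and 154 in the YOD1 libraries, against 79.5, 38.1 and 55.2 in the controls. The groups did not overlap, and the ratio of means was 3.20. These sums made up 0.0591%, 0.061% and 0.0438% of all FPKM with YOD1, and 0.0248%, 0.0121% and 0.0173% in the controls. These sums depend on how reads were split among near-identical copies, since FPKM is per model length and the models of H4 members, for one, run from 312 to 1630 bases.

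H4 members summed to 79.02, 76.9 and 74.3 FPKM in the YOD1 libraries and to 22.002, 9.47 and 20.6 FPKM in the controls, a ratio of 4.42. The YOD1 libraries lay close together at 76.7 ± 2.38 FPKM, while the controls spread more widely at 17.4 ± 6.87 FPKM (SD, n = 3 each). H2B members summed to 62.8, 60.9 and 44.2 FPKM with YOD1, against 21.8, 9.32 and 13.9 FPKM in controls, a ratio of 3.73. Both sub-families were thus separated between the groups, with control 2 the lowest library in each.

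H3 members summed to 8.11, 14.2 and 4.06 FPKM in the YOD1 libraries, against 1.67, 0.423 and 1.37 FPKM in the controls (ratio 7.63). H2A members summed to 10.3, 13.6 and 2.86 FPKM with YOD1, against 0.980, 0.284 and 0.956 FPKM in controls (ratio 12.0). These 2 sub-families had the lowest sums in both groups and the largest ratios, which rest on control sums near or under 1 FPKM and on YOD1 libraries that differed several-fold. No test was made of the difference between sub-families.

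H1 members summed to 39.4, 33.4 and 28.8 FPKM in the YOD1 libraries, against 33.01, 18.6 and 18.4 FPKM in the controls. Here the groups overlapped, through control 1, and the ratio was 1.45. H1 was 18.4% of the member sum with YOD1 and 40.5% in the controls, while H4 was 41.6% with YOD1 and 30.1% in the controls.

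**Figure D1:**
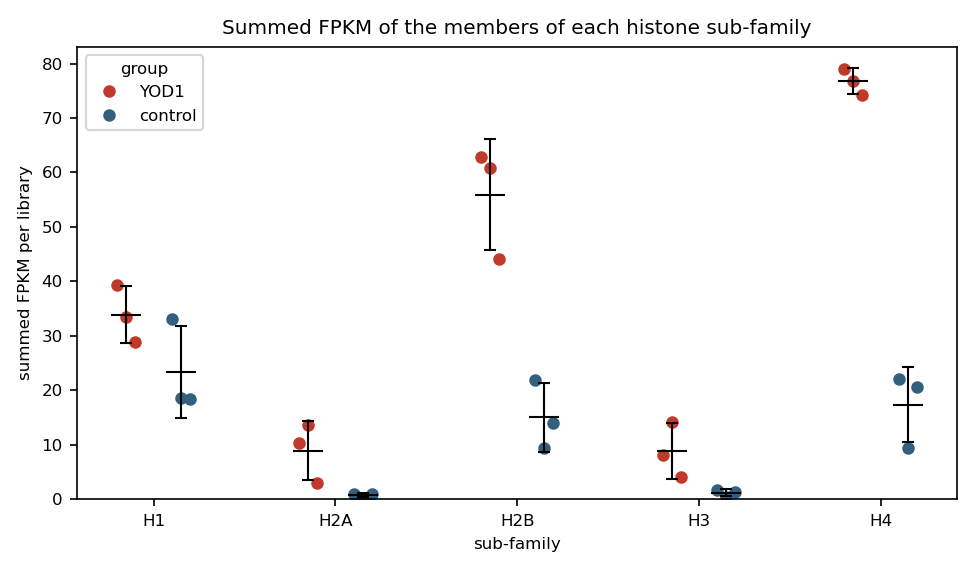
Summed FPKM of the members of each histone sub-family (vertical axis, linear, from 0) for each library, YOD1 in red and control in blue; bars give the mean and SD of 3 libraries. The groups overlap for H1 and are apart for H2A, H2B, H3 and H4, with H4 between 74.3 and 79.02 in the YOD1 libraries.

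Single genes were tested where they passed the filter, which 27 of the 58 members did: 4 H1, 11 H2B, all 12 H4 and none of the H2A or H3 members. Of these, 7 passed through YOD1 libraries alone, with every control under 1 FPKM, so a difference was built into their selection. By limma 10 of the 27 were called higher, against 0.444% of all tested genes, and 0 were called lower, against 0.0348%; 0 members had an unadjusted p under 0.05 in the lower direction. The called genes were 6 of H4, 3 of H2B and 1 of H1, and 4 of the 10, H2bc11, H2bc24, H4c11 and H4c1, had passed the filter through YOD1 libraries alone. A further 10 had adjusted p from 0.0523 to 0.0783 in limma, with log2 fold changes from 0.88 to 1.72. Among them H2bc3, H4c14 and H4c17 had also passed the filter through YOD1 libraries alone. The median log2 fold change of the 27 was 1.21. Without YOD1 library 1 the number called was 6 and without control 2 it was 4, while correction for transcript length and GC content, added after seeing the data, left 5. Median-ratio scaling gave 20 members, against 1.18% of genes, and removed most of the shift of the median of all genes, to -0.02.

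All 58 members can be placed by whether the 3 YOD1 libraries lay above the 3 controls, without any filter. This was so for 36 members, against 6.95% of all genes listed, and the opposite held for 0 members, against 10.9%. Among the 27 tested members it was so for 22, against 9.77% of tested genes, but for the 7 of them that passed the filter through YOD1 libraries alone the filter itself fixed it. The 36 were 12 of 12 H4, 11 of 15 H2B, 6 of 11 H3, 5 of 15 H2A and 2 of 5 H1 members. With no filter the log2 fold change was above 0 for 57 of 58 members, against 43.9% of genes. That limma fit called 0 of 28789 genes at an adjusted p of 0.05. At an unadjusted p under 0.05 it had 35 of the 58 members higher, against 4.9% of genes.

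**Figure D2:**
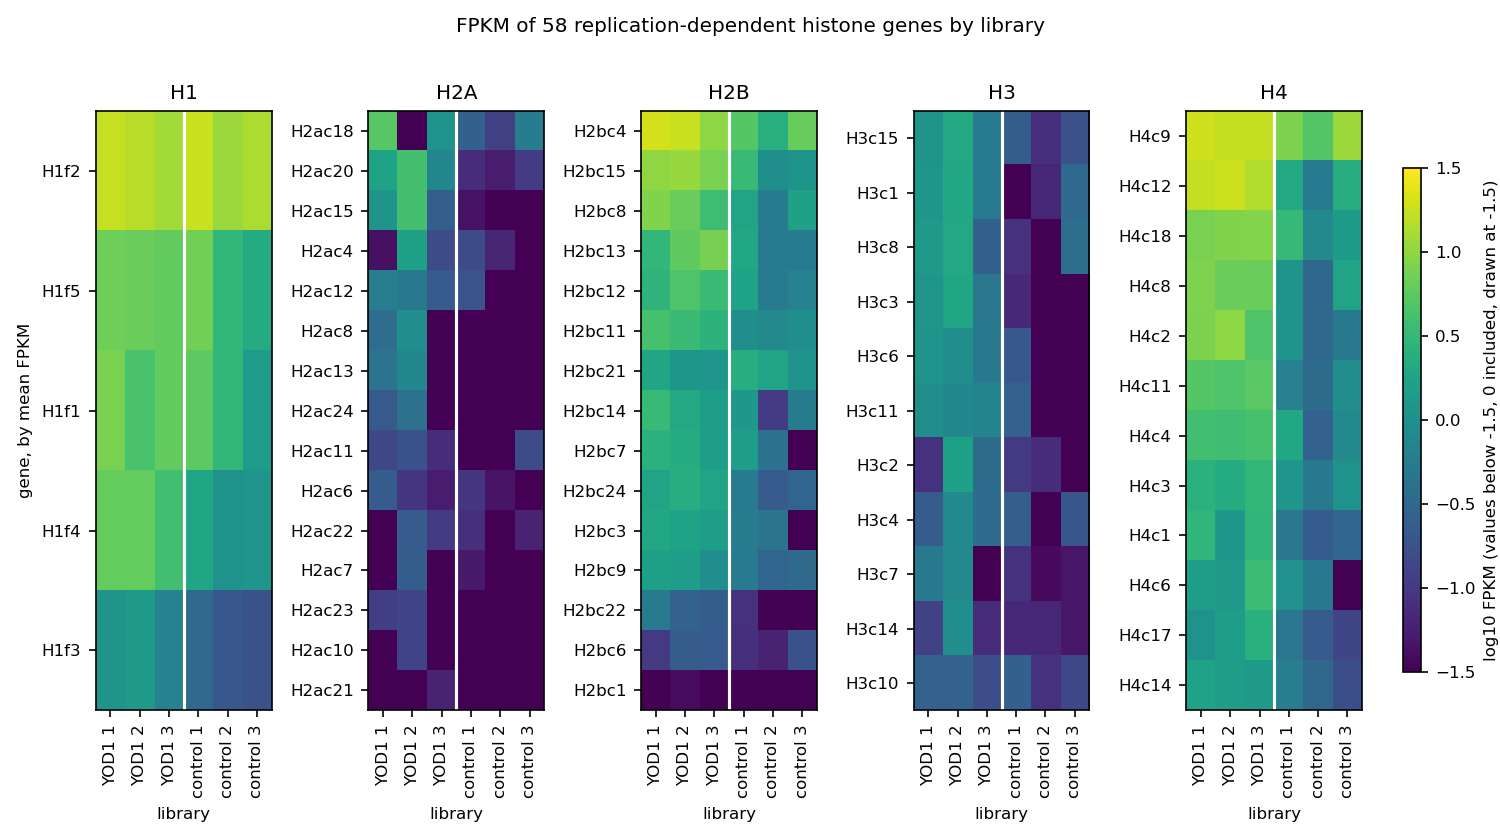
Each row is 1 of the 58 members, ordered by mean FPKM within its sub-family, and each column 1 library, with YOD1 left of the white line and control right of it. Colour gives log10 FPKM, with the lowest values (0 included) drawn at the bottom of the scale; all 12 H4 rows are brighter in every YOD1 library than in every control, while H1f2 is nearly even.

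The H4 genes all encode the same protein, the core histone that pairs with H3 in the tetramer at the centre of the nucleosome. H4c12 (ENSMUSG00000064288) had the largest log2 fold change among tested members. It stood at 16.8, 18.7 and 14.3 FPKM in the YOD1 libraries, against 2.05, 0.566 and 2.33 FPKM in the controls. Every YOD1 library was above every control, and H4c12 rose by a log2 fold change of 2.80 (SE 0.27, limma adjusted p = 0.00378). H4c2 (ENSMUSG00000069266), with the GGTCC stem shown above, had 8.01, 9.89 and 4.77 FPKM with YOD1, against 1.13, 0.322 and 0.517 FPKM in controls. It rose by 2.35 (SE 0.26, limma adjusted p = 0.00631), with no overlap.

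H4c11 (ENSMUSG00000067455), the other gene with that stem, had 5.18, 4.75 and 5.38 FPKM in the YOD1 libraries, against 0.633, 0.364 and 0.963 FPKM in the controls. Its groups were far apart relative to their spread, with a log2 fold change of 1.90 (SE 0.17, limma adjusted p = 0.00359). H4c8 (ENSMUSG00000060981) had 8.38, 6.47 and 6.57 FPKM with YOD1, against 1.13, 0.327 and 1.77 FPKM in controls (log2 fold change 2.03, SE 0.25, limma adjusted p = 0.0114). H4c12, H4c2, H4c11 and H4c8 were the 4 members called in each of the 6 fits that left out 1 library; for H4c11, whose controls were all under 1 FPKM, the filter had already selected a difference. After length and GC correction H4c2 had a log2 fold change of 2.13 and an adjusted p of 0.0506 in limma.

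H4c18 (ENSMUSG00000069305) had 7.84, 8.65 and 8.66 FPKM in the YOD1 libraries, against 3.23, 0.821 and 1.37 FPKM in the controls, where control 1 stood apart. Its log2 fold change was 1.83 (SE 0.27, limma adjusted p = 0.0227), and the adjusted p was 0.055 without YOD1 library 1 and 0.0754 without control 2, and 0.0646 after length and GC correction (1.62). H4c1 (ENSMUSG00000060093) had 2.95, 1.27 and 2.98 FPKM with YOD1, against 0.505, 0.235 and 0.303 FPKM in controls. The groups did not overlap (log2 fold change 1.29, SE 0.22, limma adjusted p = 0.0476), but the call held in 1 of the 6 fits that left out a library, that without YOD1 library 2. In the other 5, which left out YOD1 library 1, YOD1 library 3, control 1, control 2 and control 3, the limma adjusted p was 0.124, 0.0512, 0.12, 0.202 and 0.0625. It was 0.0529 after length and GC correction (1.14).

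H4c9 had the highest mean of the H4 genes. It stood at 19.1, 16.7 and 16.9 FPKM in the YOD1 libraries, against 8.07, 4.97 and 11.1 FPKM in the controls, with no overlap. Its log2 fold change of 1.09 (SE 0.23) did not pass in limma (adjusted p = 0.0783), and passed without control 3 (1.33, adjusted p = 0.0228). The other fits that left out 1 library gave H4c9 a limma adjusted p from 0.0822 to 0.212. H4c14, H4c3, H4c6, H4c17 and H4c4, the other 5 H4 members, had log2 fold changes from 0.88 to 1.38, and none passed.

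H2B pairs with H2A in the dimers that flank the tetramer. H2bc4 had the highest mean of its sub-family, with 20.2, 17.7 and 9.70 FPKM in the YOD1 libraries, against 5.08, 2.49 and 6.42 FPKM in the controls. The groups did not overlap, and the log2 fold change of 1.58 (SE 0.32) did not pass in limma (adjusted p = 0.0675). Without YOD1 library 3 it was 1.88 and passed (adjusted p = 0.0144), as it did without control 3 (1.81, adjusted p = 0.041). The other fits that left out 1 library gave H2bc4 a limma adjusted p from 0.111 to 0.214.

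H2bc15 (ENSMUSG00000095217) had 9.92, 10.8 and 7.87 FPKM with YOD1, against 3.29, 0.992 and 1.14 FPKM in controls. It rose by 1.99 (SE 0.28, limma adjusted p = 0.0179), with control 1 again the highest control. The call ended without YOD1 library 1 (adjusted p = 0.0539), without control 2 (0.0764) and after length and GC correction (1.65, adjusted p = 0.0701). H2bc8 had 8.62, 6.53 and 3.68 FPKM with YOD1, against 1.81, 0.544 and 1.66 FPKM in controls. It did not pass in limma (log2 fold change 1.63, SE 0.30, adjusted p = 0.0523), though it passed without YOD1 library 3 (1.91, adjusted p = 0.00933). The other fits that left out 1 library gave H2bc8 a limma adjusted p from 0.0523 to 0.188.

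H2bc11 (ENSMUSG00000069300) had 4.28, 3.51 and 2.72 FPKM in the YOD1 libraries, against 0.982, 0.819 and 0.985 FPKM in the controls, which lay close together. Its log2 fold change was 1.21 (SE 0.17, limma adjusted p = 0.0179). The call ended without YOD1 library 1, control 1 or control 2 (adjusted p = 0.055, 0.079 and 0.105) and after length and GC correction (0.95, adjusted p = 0.0719). H2bc24 (ENSMUSG00000069303) had 1.77, 2.34 and 1.81 FPKM with YOD1, against 0.563, 0.228 and 0.299 FPKM in controls (log2 fold change 1.13, SE 0.16, limma adjusted p = 0.0179). Its adjusted p was 0.107 without control 2. Its longest model shares 88.5% of its 50-base stretches with other genes, and for the called genes H2bc15, H4c18, H4c2, H4c12 and H2bc11 the share was 86.5%, 85.6%, 75.9%, 71.5% and 59.4%. For the other 4 called genes the share was between 24.6% and 45.8%. The values of all 10 called genes thus depend in part on how reads of copies were assigned.

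H2bc21 was the exception in its sub-family. It had 1.88, 1.22 and 1.16 FPKM in the YOD1 libraries, against 2.36, 1.79 and 1.06 FPKM in the controls. The groups overlapped, and the log2 fold change was -0.16 (SE 0.21, 95% interval -0.63 to 0.31). It was also the only member with a fold change below 0, and 0% of its 50-base stretches are shared with another gene. H2bc1, which encodes a testis-specific H2B, was listed at 0 in all controls and reached 0.0384 FPKM at most with YOD1.

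H1 proteins bind the linker DNA between nucleosomes. H1f2 had the highest H1 level and the smallest shift, with 17.3, 15.04 and 12.3 FPKM in the YOD1 libraries, against 17.8, 11.2 and 13.4 FPKM in the controls. Its groups overlapped fully (log2 fold change 0.08, SE 0.19, 95% interval -0.35 to 0.51). H1f4 (ENSMUSG00000051627) had 6.23, 6.24 and 3.92 FPKM with YOD1, against 1.90, 1.07 and 1.15 FPKM in controls. It rose by 1.44 (SE 0.21, limma adjusted p = 0.0211), with no overlap, and the adjusted p was 0.0635 without YOD1 library 1 and 0.107 without control 2.

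H1f5 had 6.91, 6.49 and 6.04 FPKM in the YOD1 libraries, against 7.23, 3.10 and 2.20 FPKM in the controls. H1f1 had 7.78, 4.34 and 5.95 FPKM with YOD1, against 5.72, 3.04 and 1.45 FPKM in controls. In both genes control 1 lay within or above the YOD1 libraries, so the groups overlapped, and neither passed in limma (log2 fold changes 0.65 and 0.77, adjusted p = 0.251 and 0.234). H1f3, which did not pass the filter, had 1.12, 1.32 and 0.677 FPKM with YOD1, against 0.335, 0.204 and 0.174 FPKM in controls, without overlap.

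**Figure D3:**
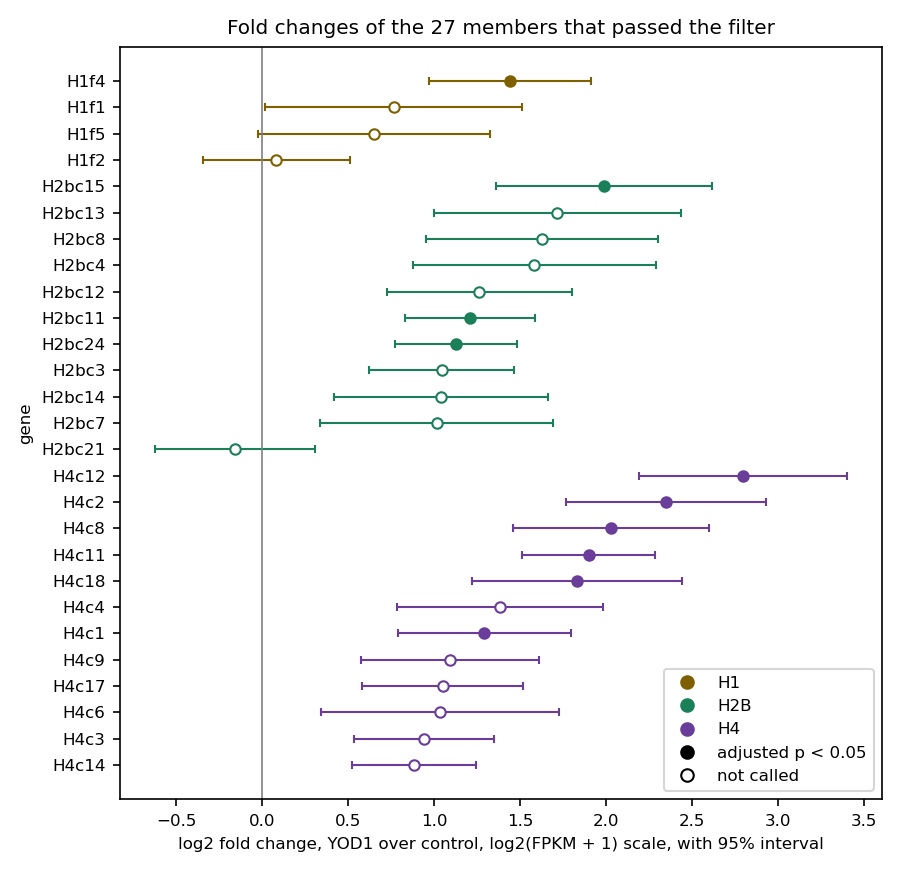
Log2 fold change of YOD1 over control on the log2(FPKM + 1) scale for the 27 tested members, with 95% intervals from limma and coloured by sub-family; filled points are the 10 called genes. The intervals of H2bc21, H1f2 and H1f5 cross 0 and those of the other 24 do not.

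H3 carries the best-known modified histone tails, and 0 of its 11 members passed the filter. H3c15 had the highest mean, with 1.12, 2.07 and 0.553 FPKM in the YOD1 libraries, against 0.240, 0.0813 and 0.178 FPKM in the controls. H3c1 had 1.21, 1.98 and 0.533 FPKM with YOD1, against 0.0118, 0.0709 and 0.338 FPKM in controls. H3c8 had 1.32, 2.05 and 0.273 FPKM with YOD1, against 0.0846, 0 and 0.389 FPKM in controls. The groups were apart for H3c15 and H3c1 and overlapped for H3c8, and in all 3 genes YOD1 library 2 was the highest and library 3 the lowest of the YOD1 libraries.

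H2A was the sparsest sub-family, with 12 of 15 members listed at 0 in at least 1 control. H2ac20 had 1.73, 4.09 and 0.762 FPKM in the YOD1 libraries, against 0.0755, 0.0554 and 0.105 FPKM in the controls. H2ac15 had 1.12, 4.16 and 0.254 FPKM with YOD1, against 0.0447, 0 and 0.00566 FPKM in controls. Both were apart between the groups, again with YOD1 library 2 the highest. H2ac18 had 5.27, 0 and 1.10 FPKM with YOD1, against 0.267, 0.117 and 0.593 FPKM in controls, so its groups overlapped. Every 50-base stretch of the H2ac18 model (100%) also occurs in another gene, so its value is uncertain.

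The YOD1 libraries differed from each other by sub-family. YOD1 library 2 was the highest of the 3 for 11 of 15 H2A and 9 of 11 H3 members, but for 5 of 15 H2B and 2 of 12 H4 members. Set against H4, the H3 sum was 10.3%, 18.5% and 5.47% in YOD1 libraries 1, 2 and 3, and 7.59%, 4.46% and 6.64% in the controls. The H2A sum was 16.4%, 22.3% and 6.48% of the H2B sum with YOD1, and 4.50%, 3.05% and 6.87% in controls. In both ratios YOD1 library 3 lay within the range of the controls. Among the controls, control 1 was the highest for 38 of 58 members and control 2 the lowest for 31.

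Many H2A and H2B genes lie head to head, with starts a short way apart on opposite strands, and so share the DNA between them. The annotation holds 10 such pairs among the members, with 176 to 302 bases between the starts (at most 500 were allowed). The promoter of H2bc8 is printed because the space it shares with H2ac8 is the shortest of the 10, and because it holds both elements in capitals. It is RefSeq sequence of build GRCm38.p6, chr13:23571150-23571449, plus strand, around the H2bc8 start, with the octamer ATTTGCAT and TATAAA in capitals, 5′ to 3′:
H2bc8 promoter: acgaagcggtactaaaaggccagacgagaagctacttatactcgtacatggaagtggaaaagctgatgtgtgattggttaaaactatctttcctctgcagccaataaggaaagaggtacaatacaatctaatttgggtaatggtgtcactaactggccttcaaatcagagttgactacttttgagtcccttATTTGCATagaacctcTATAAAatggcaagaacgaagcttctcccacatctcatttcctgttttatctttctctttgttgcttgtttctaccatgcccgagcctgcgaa
The octamer ATTTGCAT, searched on both strands, was in the promoters of 5 of 12 H2B and 5 of 15 H2A members with an entry, against 1.75% of 27025 promoters. It was in 0 of 5 H1, 0 of 9 H3 and 0 of 11 H4 promoters. TATAAA was in 7 of 12 H2B, 10 of 15 H2A, 4 of 9 H3, 8 of 11 H4 and 4 of 5 H1 promoters, against 14.2% of all promoters. CCAAT was in all 12 H2B, 15 H2A, 9 H3 and 5 H1 promoters but in 3 of 11 H4 promoters, against 37.9% of all promoters. Windows of head-to-head neighbours can overlap, so the same match may be counted for both genes. These are matches of letters in a window and no measure of factor binding.

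Within the pairs the H2B gene was usually the higher, in FPKM, which is per transcript length. Its mean was above that of its H2A neighbour in 9 of 10 pairs with YOD1 and in 9 of 10 in controls. In the H2ac8 and H2bc8 pair, H2ac8 had 0.373, 0.947 and 0.0102 FPKM in the YOD1 libraries, against 0, 0 and 0.00316 FPKM in the controls, far under the H2bc8 values given above. In the H2ac6 and H2bc4 pair, H2ac6 averaged 0.127 FPKM with YOD1 and 0.0472 FPKM in controls, beside 15.9 FPKM with YOD1 and 4.66 FPKM in controls for H2bc4.

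The pair of H2ac20 and H2bc21 on chromosome 3 differed from the other 9 with YOD1, where its H2A gene had the higher mean. With YOD1, H2ac20 averaged 2.19 ± 1.71 FPKM and H2bc21 1.42 ± 0.395 FPKM (SD, n = 3 each). In the controls H2ac20 averaged 0.0787 ± 0.0252 FPKM and H2bc21 1.74 ± 0.652 FPKM (SD, n = 3 each). The H2A gene was thus the lower of the pair in every control and the higher of the pair in YOD1 library 2, while its neighbour overlapped between the groups. Near-identical copies bear on such comparisons: the median share of 50-base stretches found in another gene was 78.9% for H2A, 60.4% for H3, 49.7% for H2B, 39.9% for H4 and 2.25% for H1. The part of shared sequence in the low H2A and H3 values was not tested.

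**Figure D4:**
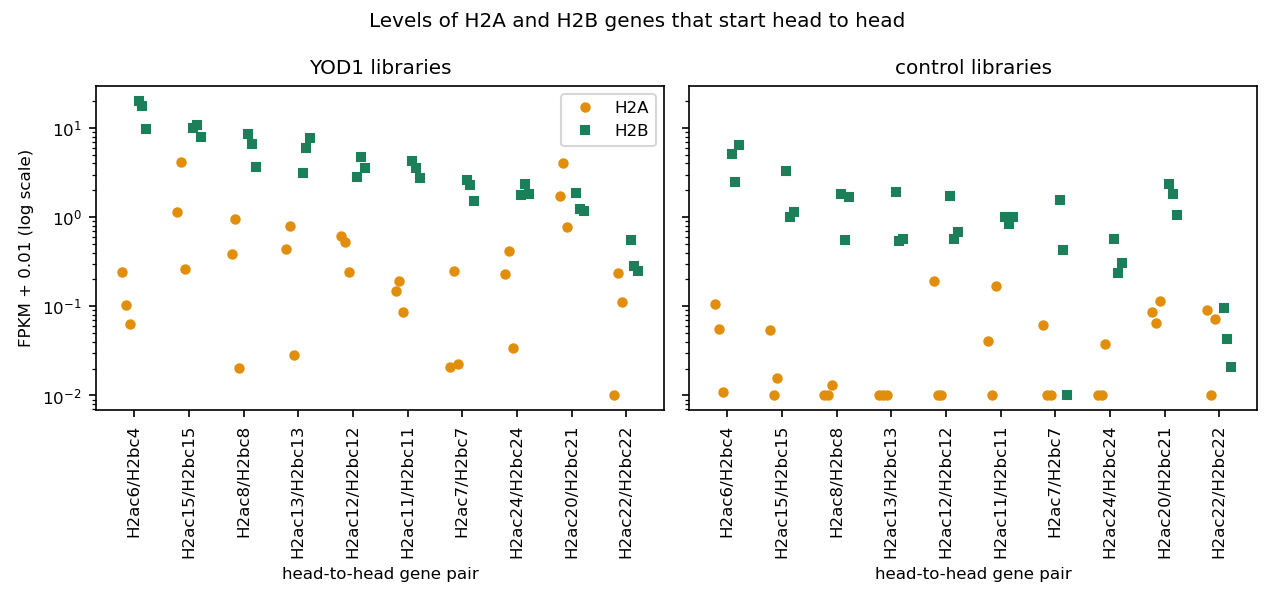
FPKM + 0.01 on a log axis for the 10 head-to-head H2A and H2B pairs, YOD1 libraries on the left and controls on the right; each point is 1 library. H2B squares lie above H2A circles in 9 of 10 pairs by mean in either group, and the H2ac20 and H2bc21 pair is the exception with YOD1.

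Transcript ends were compared next, since the protocol names a poly(A) selection, though it does not settle which fraction was sequenced. Among the 14 tested members whose model holds the stem-loop, the log2 fold changes had a median of 1.297 and ranged from 0.08 to 2.35. In the 13 tested members whose model does not hold it they had a median of 1.13 and ranged from -0.16 to 2.80. These 13 include 4 whose model ends within 2 bases of the stop codon, where the stem-loop cannot be seen. The log2 fold changes of these 4 had a median of 1.85 and ranged from 0.65 to 2.80. Other models without a match run past the stop codon, that of H4c9 by 376 bases. A stem-loop with letters other than those searched would count as absent there. The split is thus by model and by these letters, and does not sort the genes by their true transcript end. The models of H1f2 and H2bc21, the tested members with the smallest shifts, run to a poly(A) signal AATAAA within their last 40 bases. This holds for 7 members in all, of which H4c14, H4c1 and H4c11 were also tested and had log2 fold changes of 0.88, 1.29 and 1.90. Of these 5, H1f2 and H4c11 have a model that holds the stem-loop and runs past it, with log2 fold changes of 0.08 and 1.90.

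Among RNAs that carry no poly(A) tail of their own, 2 rRNA-derived rows were also called higher in the YOD1 libraries. Rn18s-rs5, related to 18S rRNA, was 3.14%, 3.90% and 2.17% of all FPKM in the YOD1 libraries, against 0.733%, 0.421% and 0.566% in the controls, and it rose by a log2 fold change of 2.51 (SE 0.28, limma adjusted p = 0.00631). AY036118, typed as a pseudogene in the table, had 182, 424 and 71.1 FPKM with YOD1, against 8.998, 4.78 and 17.9 FPKM in controls (log2 fold change 4.11, SE 0.59, limma adjusted p = 0.0181). In both, YOD1 library 2 was the highest and library 3 the lowest of the YOD1 libraries, the same order as in the H2A and H3 sums. The H4 sum instead differed little between the YOD1 libraries.

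RNA polymerase III products behaved less evenly. Rmrp, the RNA of RNase MRP, had 16.5, 13.02 and 24.3 FPKM with YOD1, against 11.7, 1.83 and 3.47 FPKM in controls (log2 fold change 1.76, SE 0.46), and did not pass in limma (adjusted p = 0.115). The signal recognition particle RNA Rn7s1 had 62.3, 60.9 and 110.3 FPKM with YOD1, against 129, 30.6 and 18.4 FPKM in controls, so control 1 was the highest library, as it was for H1f5. Of 14 listed rRNA-derived and polymerase III RNAs 8 were found and 7 tested. In limma 2 were called higher and 0 lower, and all 7 had a fold change above 0. The groups were apart for 3 of the 7 (Rn18s-rs5, AY036118 and Rmrp) and overlapped for Rpph1, Rn7sk, Rn7s1 and Rn7s2. Control 1 was also the highest library for Rpph1 (35.4 FPKM) and Rn7s2 (133 FPKM), and Rn7s2 had nearly the values of Rn7s1. The median log2 fold change of the 7 was 1.13, which was that of Rpph1 (SE 0.57). The summed FPKM of the list ran from 8018 to 13343 with YOD1 and from 1411 to 2699 in controls. The part of tail-less RNA in the histone result was not tested.

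Variant histones with poly(A) tails did not show the pattern of the members. Of 11 tested, 0 were called in either direction by limma and 2 had an unadjusted p under 0.05, both higher; 6 had a fold change above 0, and the median was 0.18. H3f3b, a source of the replacement histone H3.3, averaged 474 ± 31.6 FPKM with YOD1 and 425 ± 88.5 FPKM in controls. H2az1, an H2A.Z gene, averaged 432 ± 81.3 FPKM with YOD1 and 381 ± 104 FPKM in controls. H1f0, a replacement linker histone, averaged 257 ± 32.4 FPKM with YOD1 and 342 ± 127 FPKM in controls, and H2az2 averaged 55.04 ± 10.3 FPKM with YOD1 and 55.1 ± 6.98 FPKM in controls (SD, n = 3 for each gene and group). H2aj was the 1 variant whose groups did not overlap, with 4.62, 6.93 and 3.07 FPKM with YOD1, against 2.60, 3.00 and 1.75 FPKM in controls (log2 fold change 0.73, limma adjusted p = 0.166). The summed FPKM of all 58 members stayed under the FPKM of H3f3b alone in every library.

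Genes that make and process histone mRNA were tested as a list of transcription and 3′ end factors. Of 21, 18 were tested and 0 were called by limma in either direction. In limma 2 had an unadjusted p under 0.05, both lower, and the median log2 fold change was -0.09. Slbp, the stem-loop binding protein, averaged 10.9 ± 1.71 FPKM with YOD1 and 10.3 ± 1.13 FPKM in controls (SD, n = 3 each; log2 fold change 0.07, SE 0.16). Npat, the coactivator of histone transcription at S phase entry, had 0.815, 1.27 and 0.371 FPKM with YOD1, against 1.55, 1.46 and 1.75 FPKM in controls. Its groups did not overlap, in the direction opposite to the members, and it did not pass in limma (log2 fold change -0.54, SE 0.19, adjusted p = 0.176). Slbp and Npat were picked after their values were seen. The 4 genes of highest mean, Upf1, Ncbp1, Ncbp2 and Sympk, had log2 fold changes of 0.14, 0.14, -0.23 and 0.01.

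Histone chaperones, which escort histones to new DNA, gave 0 limma calls among 15 tested of 16, with 1 unadjusted p under 0.05 (Hira, -0.33) and a median of -0.08. Ssrp1, Ipo4, Rbbp7 and Asf1b led by mean and had log2 fold changes of 0.07, 0.21, -0.24 and 0.02. S phase genes gave 0 limma calls among 29 tested of 30, with 5 at an unadjusted p under 0.05, 4 of them higher. Their median log2 fold change was 0.03, and 16 were above 0. Mcm5, a subunit of the replicative helicase, averaged 233 ± 49.5 FPKM with YOD1 and 192 ± 25.9 FPKM in controls (SD, n = 3 each; log2 fold change 0.27), and Mcm3, Mcm7 and Uhrf1 had 0.08, -0.11 and -0.03. Dut, which clears dUTP from the nucleotide pool, had the largest change of the list, with 47.2, 63.4 and 44.5 FPKM with YOD1, against 28.8, 30.4 and 38.8 FPKM in controls (log2 fold change 0.64, limma adjusted p = 0.116).

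**Figure D5:**
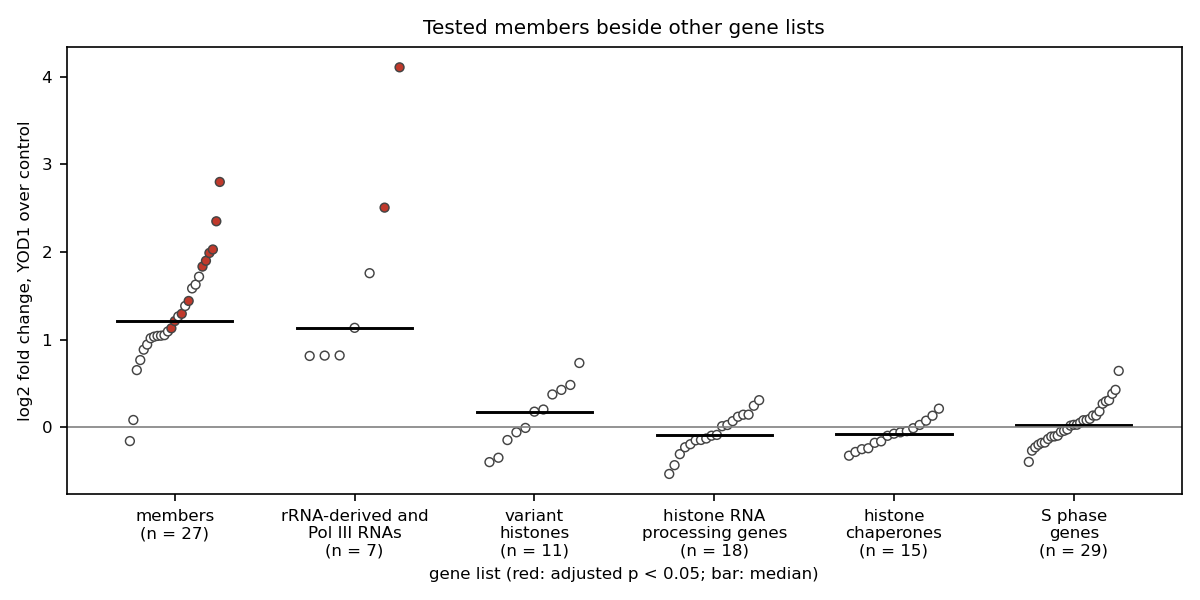
Log2 fold change of YOD1 over control (log2(FPKM + 1) scale) for the tested genes of 6 lists; each point is 1 gene, red points passed at an adjusted p of 0.05 in limma, and bars are medians. The medians of the members (1.21) and of the rRNA-derived and polymerase III RNAs (1.13) lie above 0. The member H2bc21 lies below 0, at -0.16. Medians of the variant histones (0.18), processing genes (-0.09), chaperones (-0.08) and S phase genes (0.03) lie around 0. Of the 27 members drawn, 7 passed the filter through YOD1 libraries alone, and without a filter the median of all 58 members was 0.86.

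The authors' deposited table marks 28 of the 58 members as significant and higher, against 0.66% of all genes, and 0 as lower, against 0.333%. In the authors' deposited table these were 11 H4, 8 H2B, 4 H3, 3 H2A and 2 H1 members. The authors' deposited table gives H4c12 a ratio of 10.1 with q = 1.25e-13 and H1f2 a ratio of 1.05 with q = 0.946. It thus includes H2A and H3 genes that stood too low for the filter used here, and the test behind its q-values is not known here.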

How the data were processed

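The authors deposited 1 table with FPKM per gene and library, and in the same table, per the file headers, a fold ratio of YOD1 over control with its log2 form. The deposited p-value and q-value of each gene stand beside them. Bowtie 0.12.2, StringTie 1.3.0 and HISAT2 2.0 appear in the submitters' processing notes without a stated role, as does the genome build mm8. Whether libraries kept strand is not stated, so reads of overlapping antisense genes cannot be told apart. The table holds no counts, so the depth behind a value is unknown. Pairs of libraries shared 0 to 6 identical values above 0, and none was treated as a copy. The number of per-sample columns left unused was 0.

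Values were transformed to log2(FPKM + 1), a scale that understates changes of low genes. The filter (1 FPKM or more in any 3 of the 6 libraries) kept 11483 of 28789 genes, and YOD1 was compared with control in limma 3.58.1 (R 4.3.3; two-sided, with an intensity trend in the moderated variances and Benjamini-Hochberg adjustment over all tested genes). The procedure was tested on simulated data. Sub-family sums use all members without a filter and have no test. The members, lists and tests were chosen with earlier results of these data known. Named with all values were Yod1, each called member, and the 3 members of highest mean FPKM per sub-family; other members were named after their values were seen. For other lists the called genes and up to 4 genes of highest mean were named, and further ones after their values were seen. The values of 1 marker gene are not reported here. Transcript models, lengths and GC content came from GENCODE M21 (GRCm38), matched by transcript identifier for all 58 members, and promoters from RefSeq (GRCm38.p6). These belong to another build than mm8, and their coordinates describe only the sequences printed. Shared stretches of 50 bases were counted against all GENCODE transcripts on both strands. Python 3.11.15, pandas 2.3.3, numpy 2.4.6 and matplotlib 3.10.9 were used. The alternatives tried are other filters, pseudocount, scalings, no trend, a replicate block, each library left out, and a length and GC correction.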

Additional observations from a re-analysis of the deposited data

How the results depend on the processing

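The log2 fold change kept its sign for 25 of the 27 tested members under all alternatives; H1f2 was -0.03 without YOD1 library 1 and ran from -0.065 to 0.25 when 1 library was left out, lowest without control 2, and H2bc21 ran from -0.35 to 0.00212, highest without control 1. Members called higher numbered 0 without a filter, 4 at a filter of 5 FPKM (9 members tested), 20 with median-ratio scaling and 5 after length and GC correction, and 4 to 13 when 1 library was left out. Genes called higher numbered 0, 136 and 26 without a filter, with median-ratio scaling and after length and GC correction, 30 after rescaling without rRNA-derived and polymerase III rows, and 17 to 145 when 1 library was left out. Genes called lower numbered 0, 8 and 7 without a filter, with median-ratio scaling and after length and GC correction, and 1 to 97 when 1 library was left out. The cause of these shifts was not tested. The median over tested members was 0.86 without a filter (58 members), 1.58 at 5 FPKM, 2.22 with a pseudocount of 0.1 and 1.06 after length and GC correction, against -0.01, -0.07, -0.12 and -0.02 over all genes. It was 1.11 to 1.38 when 1 library was left out. The ratio of summed FPKM ran, when 1 library was left out, from 1.31 to 1.83 for H1, 8.90 to 16.1 for H2A, 3.13 to 4.82 for H2B, 5.28 to 9.83 for H3 and 3.60 to 5.10 for H4. For H4 it was 4.77 with median-ratio scaling and 4.28 after the rescaling. Same-numbered libraries of the groups had correlations of their deviations of 0.30, -0.12 and -0.11, so the numbers were not taken to pair them. With the replicate block 6 members were called higher, and over all genes 33 higher and 8 lower. The length and GC correction was chosen after seeing the data. FPKM gives no read depth, so values under 1 FPKM have unknown counting error.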
